A study of Mus musculus with 4 samples.

Results

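The adenosine deaminases acting on RNA were read in 4 mouse RNA sequencing libraries. The set holds 6 genes of the 33783 named genes in the deposited values: Adar, Adarb1, Adarb2, Adat1, Adat2 and Adat3. They were chosen by gene symbol. Every transcript of these symbols was taken, together with the transcripts assembled from the reads that overlap the same locus. Of the assembled ones, only those in the same assembled gene as a reference transcript enter a gene's value. The others are called uncounted and are given apart. Total RNA came from whole embryos at E11.5 (embryonic day; strain label C57B16/N) and from embryonic livers at E15.5 (strain label C57B6/J). In each tissue there was 1 library labelled Adar1-/- Mavs-/- and 1 library labelled Adar1-/-, so Adar is labelled as lost in all 4 groups and Mavs is labelled as lost in only 1 library per tissue. How either allele was made, and whether animals were pooled, is stated by no label. No library without the Adar1 genotype was analysed, and mice that lack ADAR1 are known to die before birth, which limits these tissues as a model.

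ADAR proteins bind double-stranded RNA and convert adenosine to inosine, which the cell reads as guanosine. The mouse gene Adar encodes ADAR1, made as a long protein from an interferon-responsive promoter and as a shorter, constitutive protein, and editing of endogenous RNA by ADAR1 is known to keep it from being sensed as foreign through MDA5 and its adaptor MAVS. Adarb1 encodes ADAR2, the enzyme of many recoding sites in neuronal messages, and Adarb2 encodes ADAR3, a brain protein for which no editing activity is established. The ADAT enzymes act on transfer RNA: ADAT1 deaminates the adenosine next to the anticodon of alanine tRNA, and ADAT2 and ADAT3 form the enzyme that makes inosine at the wobble position of the anticodon.

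All 6 genes encode a deaminase motif of histidine, alanine and, in 5 of them, glutamate, the residues that bind zinc and move protons in the active site. The codons are shown because they mark the part of each gene that the activity rests on, and they allow transcripts that hold the active site to be told from those that do not. Capitals mark the 3 codons and lower case the 4 codons on each side. The sequences are those of GENCODE M21 reference transcripts.
Adar, chromosome 3: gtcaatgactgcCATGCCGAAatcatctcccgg
Adarb1, chromosome 10: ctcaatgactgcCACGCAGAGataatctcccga
Adarb2, chromosome 13: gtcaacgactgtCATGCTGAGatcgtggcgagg
Adat1, chromosome 8: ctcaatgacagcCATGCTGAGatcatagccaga
Adat2, chromosome 10: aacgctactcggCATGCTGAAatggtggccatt
Adat3, chromosome 10: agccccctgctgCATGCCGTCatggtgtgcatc
The histidine codon is number 859 of the long Adar reading frame, 394 of Adarb1, 438 of Adarb2, 87 of Adat1, 71 of Adat2 and 223 of Adat3. Adat3 has GTC, a valine codon, where the others have GAA or GAG, and ADAT3 is known as the non-catalytic partner of ADAT2.

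Adar has a pair of promoters. Their RefSeq windows (build GRCm38.p6, plus strand, from 250 bases before to 50 bases after the start) are shown because reference transcripts of Adar start at both. The interferon-stimulated response element has the core GAAANNGAA, searched on both strands and marked in capitals.
Distal promoter, chr3:89714772-89715071: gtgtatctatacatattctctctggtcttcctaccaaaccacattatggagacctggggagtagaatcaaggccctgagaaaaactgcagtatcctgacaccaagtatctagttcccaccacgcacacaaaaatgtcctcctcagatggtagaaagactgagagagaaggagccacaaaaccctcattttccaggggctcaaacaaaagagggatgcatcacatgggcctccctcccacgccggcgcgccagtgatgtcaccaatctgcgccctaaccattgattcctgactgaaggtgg
Proximal promoter, chr3:89730468-89730767: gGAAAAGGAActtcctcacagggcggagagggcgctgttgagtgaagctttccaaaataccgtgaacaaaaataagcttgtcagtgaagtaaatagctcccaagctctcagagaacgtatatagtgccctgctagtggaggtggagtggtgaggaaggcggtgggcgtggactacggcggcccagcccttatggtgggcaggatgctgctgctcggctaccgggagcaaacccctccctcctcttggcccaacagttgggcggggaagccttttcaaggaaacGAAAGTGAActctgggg
The proximal window held 2 matches and the distal window held none, against 8.56% of 32851 promoter windows of 300 bases with at least 1 match. The second match begins 3 bases after the first base of the 4 reference transcripts that start there. Another window, which overlaps the distal one, and the single windows of Adarb1, Adarb2, Adat2 and Adat3 held no match either. A match is a stretch of letters only, and binding was not measured.

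The deposited unit is FPKM, a fragment count divided by transcript length and by library depth, given for each transcript with a lower and an upper bound. A gene's value is the sum over its transcripts, and FPKM values are given as deposited, with their bounds in parentheses. Differences are the log2 ratio of FPKM plus 1, with the library labelled Adar1-/- Mavs-/- on top and that labelled Adar1-/- below, after scaling the values of the upper one so that the median ratio of well-measured genes is 1. The factor was 1.32 in embryos and 0.987 in liver. Each group is a single library, so nothing was tested and no spread between animals is known: the bounds cover estimation within a library, and every difference compares a pair of libraries, not genotypes. Fewer cells of a type and less RNA per cell cannot be told apart in whole tissue. Depth, read from the bounds, came to about 56600000 fragments in the embryo library labelled Adar1-/- Mavs-/- and 35200000 in that labelled Adar1-/-, and in liver to 73500000 under the Adar1-/- Mavs-/- label and 88600000 under the Adar1-/- label. The embryo values analysed here cover chromosomes 10 and 11 and parts of chromosomes 12 and 13, so Adar and Adat1 have no embryo value, and Adarb2 has one in a single embryo library. The 5 hepatocyte markers had 11552 FPKM in sum in the liver library labelled Adar1-/- Mavs-/- and 9404 FPKM in that labelled Adar1-/-. Summed likewise and in that order, erythroid markers had 2199 and 1763 FPKM, macrophage 145.6 and 120.8, and megakaryocyte 78.7 and 44.2. Endothelial markers had 39.6 and 67.4 FPKM, skeletal muscle 9.36 and 130.1, heart muscle 1.04 and 25.4, and neural 0.255 and 1.89. The part of tissue make-up in the liver differences of the members was not tested.

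The targeted genes came first, because the labels name them. Adar spans chr3:89518944-89557368 in the mm9 build of the files, 38425 bases. In liver it had 4.11 FPKM (3.86 to 4.36) in the library labelled Adar1-/- Mavs-/- and 5.56 FPKM (5.28 to 5.84) in the library labelled Adar1-/-. The gene total was therefore not near 0 in either library, and the bounds did not overlap. The log2 ratio was -0.38, within 2-fold. Mavs, at chr2:131059799-131073761, had 9.96 FPKM (9.17 to 10.7) in the library labelled Adar1-/- Mavs-/- and 7.26 FPKM (6.64 to 7.88) in the library labelled Adar1-/-, a log2 ratio of 0.39. Mavs transcripts were thus present in the library labelled as lacking Mavs, with the higher value of the pair. The bounds did not overlap, but they cover estimation within a library only. Of the 13601 counted liver genes, 52.7% lay at least as far from 0 as Mavs and 54.2% at least as far as Adar. Whether the Mavs transcripts can make the protein was not measured.

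The gene total of Adar concealed a difference in structure. In the library labelled Adar1-/-, the transcripts above 0 left 47.4% of the gene uncovered in 8 stretches, and 1 stretch made up most of this: chr3:89538115-89554360, 16246 bases or 42.3% of the gene, lay within no transcript at all. In the library labelled Adar1-/- Mavs-/-, 0 bases of the gene were uncovered. Introns count as covered, and the reference transcript ENSMUST00000098924 alone spans the whole gene there. By these spans, this liver library holds Adar transcripts across a region that had none in the other liver library. No label states how the allele was made, and whether these transcripts can make the protein was not measured. The genotype is thus not settled by them, and for the liver pair it is given as the label only.

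**Figure D1:**
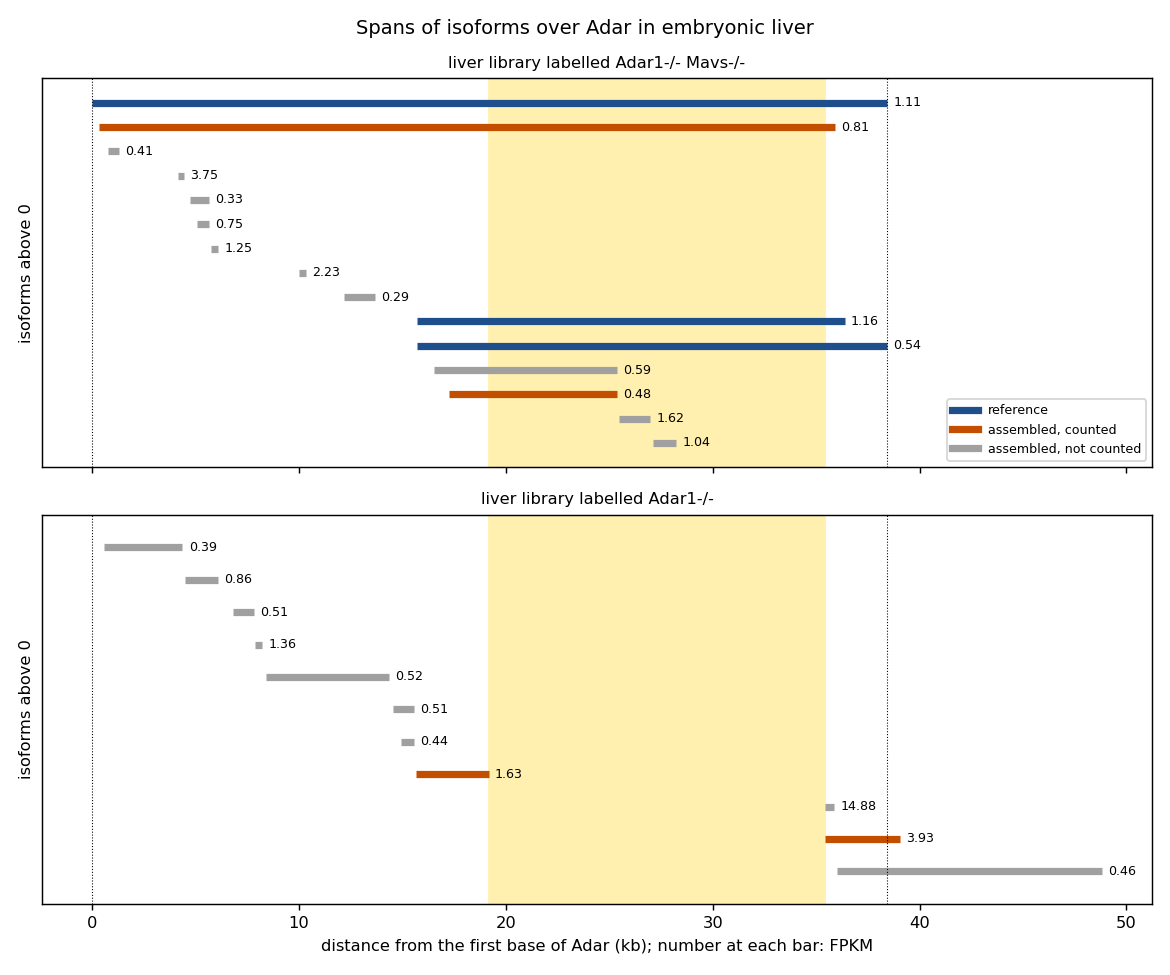
Spans of all transcripts above 0 FPKM over Adar in embryonic liver, in kb from the first base of the gene (dotted lines: gene start and end), for the library labelled Adar1-/- Mavs-/- (top) and the library labelled Adar1-/- (bottom); the number at each bar is its FPKM, introns are not drawn, and the shaded band is the stretch of 16246 bases within no transcript in the library labelled Adar1-/-. In the top panel 3 reference transcripts cross the band, and in the bottom panel none does.

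Counting introns, each of the 8 reference transcripts of Adar overlaps the uncovered stretch, so any above 0 would have covered part of it. Their values are thus part of the same observation and not separate support. In the library labelled Adar1-/- Mavs-/-, 3 of the 8 reference transcripts of Adar were above 0. ENSMUST00000098924, which starts at the distal promoter and encodes 930 amino acids, the size of the short constitutive protein, had 1.11 FPKM (0.993 to 1.23). ENSMUST00000029563 and ENSMUST00000107405, which start at the proximal promoter and encode 1152 and 1178 amino acids, the long interferon-responsive protein, had 1.16 FPKM (1.0 to 1.32) and 0.541 FPKM (0.452 to 0.630). These 3 all hold the active-site codons printed above, and the last 2 differ by 78 coding bases. In the library labelled Adar1-/-, each of the 8 had a deposited value of 0, so its Adar value came wholly from assembled transcripts. None of the 13 reference transcripts of Adarb1 was above 0 in that library either. How many other genes share this was not counted. On reference transcripts alone Adar was thus higher under the Adar1-/- Mavs-/- label, with 2.81 FPKM, and listed at 0 under the Adar1-/- label, the opposite of the gene total.

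The remaining 5 reference transcripts were listed at 0 in both liver libraries. ENSMUST00000118341 and ENSMUST00000121094 begin at the proximal promoter and encode 660 and 634 amino acids with the active site. ENSMUST00000123691 is a short transcript from the distal promoter without a reading frame. ENSMUST00000150637 and ENSMUST00000131030 keep introns, lie wholly inside the uncovered stretch, and carry codons 488 to 588 and codons 782 to 883 of the long reading frame. The second of them includes the active-site codons, which places the printed Adar sequence inside the stretch that had no transcript in the library labelled Adar1-/-.

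Counted transcripts began at both promoters in the library labelled Adar1-/- Mavs-/-. In the library labelled Adar1-/-, 1 assembled transcript began near the proximal start and none at the distal one. The distal start lies 15726 bases before the proximal start. Its counted transcripts summed to 1.92 FPKM (1.76 to 2.09) over 2 transcripts in the library labelled Adar1-/- Mavs-/-, beginning at chr3:89518944 and chr3:89519254. The library labelled Adar1-/- had no such counted transcript above 0. Between the starts lay 7 uncounted transcripts in each library, so neither was without signal there. They summed to 9.02 FPKM under the Adar1-/- Mavs-/- label (longest 1492 bases) and 4.60 FPKM under the Adar1-/- label (longest 5958 bases). Transcripts from the proximal start summed to 1.70 FPKM (1.52 to 1.89) over 2 reference transcripts in the library labelled Adar1-/- Mavs-/-. In the library labelled Adar1-/-, 1 assembled transcript near that start had 1.63 FPKM (1.49 to 1.78), with overlapping bounds. This transcript is 1 block, chr3:89534621-89538114, and ends where the uncovered stretch begins. It starts before the first base of the proximal reference transcripts, chr3:89534670, and follows uncounted transcripts of 1 block that reach chr3:89534499. Whether it starts at that promoter was not tested, so the 2 values are not read as equal promoter output. How Cufflinks divides reads between overlapping transcripts has no replicate error here.

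At the other edge the library labelled Adar1-/- had its strongest signal. The transcript of most FPKM counted under Adar there, chr3:89554361-89558000, had 3.93 FPKM (3.69 to 4.16), and a shorter one of 453 bases that begins at the same base had 14.9 FPKM (13.2 to 16.5) but belongs to another assembled gene and was not counted. In the library labelled Adar1-/- Mavs-/- no uncounted transcript lay beyond the stretch, and 3 uncounted ones reached into it, with 0.586, 1.04 and 1.62 FPKM. Counted over every assembled transcript that overlaps the gene, Adar had 16.4 FPKM in the library labelled Adar1-/- Mavs-/- and 25.5 FPKM in the library labelled Adar1-/-. A stretch with few reads can also lack a transcript: of assembled transcripts that stand alone, 99.9% had at least 10 fragments by their bounds in each liver library. The stretch therefore had no assembled transcript, which is not the same as no reads.

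A search of all genes, made after the stretch in Adar had been seen, gives its background. Of 3942 liver genes that reached 3 FPKM in each library and span at least 20000 bases, 8 genes, Adar among them, had an uncovered stretch at least as long as that of Adar in the library labelled Adar1-/- and none in the library labelled Adar1-/- Mavs-/-. The reverse pattern, with the stretch in the library labelled Adar1-/- Mavs-/-, was found in 14 genes. Such stretches are thus rare, and also occur in genes that no label names.

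**Figure D2:**
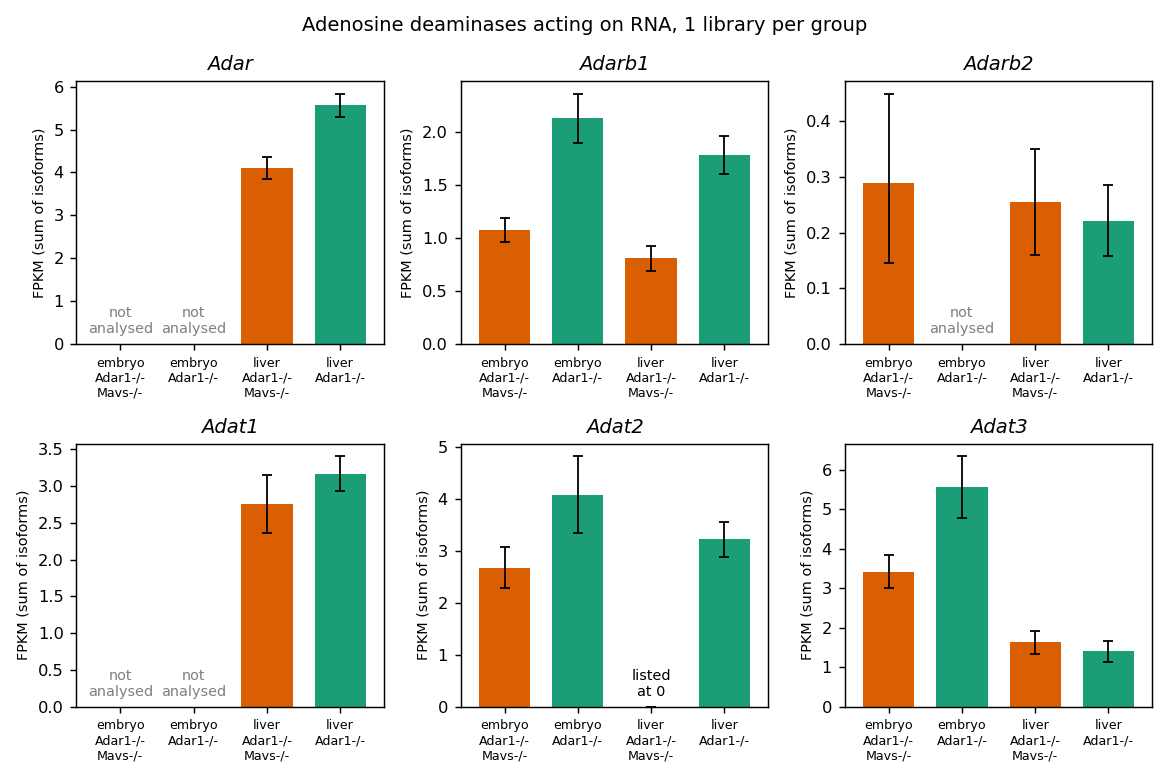
FPKM of the 6 genes, summed over transcripts, in each library (1 library per group; bars start at 0, whiskers are the deposited bounds combined over transcripts, orange for Adar1-/- Mavs-/- and green for Adar1-/-; each panel has its own scale). Adarb1 was lower in the library labelled Adar1-/- Mavs-/- in both tissues, and Adat2 was listed at 0 in a single liver library.

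Adarb1, the gene of ADAR2 (chr10:76753471-76881015), had a lower value with separate bounds in both tissues. It was the only one to do so of the 3 members that could be compared in both. In embryos it had 1.08 FPKM (0.960 to 1.20) in the library labelled Adar1-/- Mavs-/- and 2.14 FPKM (1.90 to 2.37) in the library labelled Adar1-/-. The embryo log2 ratio was -0.37. In liver it had 0.812 FPKM (0.694 to 0.931) in the library labelled Adar1-/- Mavs-/- and 1.79 FPKM (1.60 to 1.97) in the library labelled Adar1-/-, with a log2 ratio of -0.63. Both differences stayed within 2-fold on this scale, which understates differences of genes near 1 FPKM, and a pseudocount of 0.1 FPKM put the liver ratio at -1.06. Differences at least this far from 0 were common: 52.6% of the 1890 counted embryo genes and 33.4% of the 13601 counted liver genes had one.

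Adarb1 transcripts can carry an extra segment of 47 bases near the start of the reading frame, the product of an alternative 3′ splice site that ADAR2 is known to create by editing its own pre-mRNA. The segment shifts the reading frame. It is shown because the reference transcripts above 0 differ by it, with the segment in capitals and 12 bases on each side in lower case, on chromosome 10 from GENCODE M21.
Adarb1 segment: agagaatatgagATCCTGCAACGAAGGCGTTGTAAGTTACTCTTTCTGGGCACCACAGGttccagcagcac
Since the base before the segment repeats its last base, the segment may equally begin and end 1 base earlier. Of the 13 reference transcripts of Adarb1, 3 carry it: ENSMUST00000144547 and ENSMUST00000105404, whose reading frame ends after 82 amino acids, and ENSMUST00000149738, which keeps an intron. The full-length frames are 711 amino acids in ENSMUST00000098374 and 701 in ENSMUST00000020496.

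**Figure D3:**
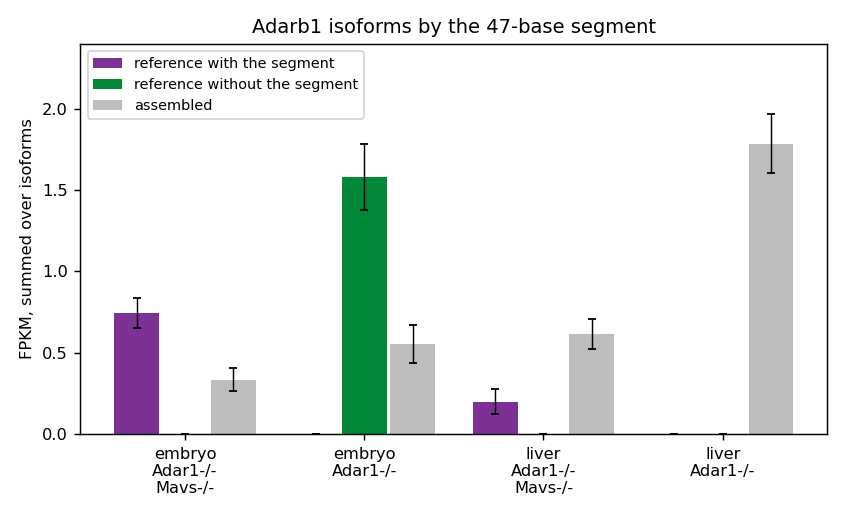
FPKM of Adarb1 in each library, summed over reference transcripts with the segment of 47 bases (purple), reference transcripts without it (green) and assembled transcripts (grey, not assigned); whiskers are the combined bounds and there is 1 library per group. Reference transcripts with the segment are above 0 in the libraries labelled Adar1-/- Mavs-/- only, and those without it in the embryo library labelled Adar1-/- only.

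The embryo libraries differed in which of these transcripts were listed above 0. The library labelled Adar1-/- Mavs-/- had 1 reference transcript above 0, ENSMUST00000144547 with the segment, at 0.743 FPKM (0.651 to 0.835), beside 1 assembled transcript at 0.334 FPKM. The library labelled Adar1-/- had 2, both without the segment: ENSMUST00000098374 at 0.837 FPKM (0.694 to 0.981) and ENSMUST00000020496 at 0.744 FPKM (0.604 to 0.884), beside 1 assembled transcript at 0.554 FPKM. The groups therefore had no reference transcript in common above 0. How many other genes show the same was not counted, so this is not read as particular to Adarb1. ENSMUST00000144547 and ENSMUST00000098374 are 6630 and 6584 bases long and share nearly all their sequence, so few reads can place a fragment in one rather than the other. The division has no replicate error, and whether it reflects splicing was not tested.

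In liver, assembled transcripts held most of Adarb1. The library labelled Adar1-/- Mavs-/- had 1 reference transcript above 0, ENSMUST00000149738 with the segment, at 0.199 FPKM (0.124 to 0.274), and 4 assembled transcripts that summed to 0.613 FPKM, the highest of them at 0.203 FPKM. The library labelled Adar1-/- had 0 reference transcripts above 0 and 5 assembled ones that summed to 1.79 FPKM, the highest at 0.636 FPKM (0.495 to 0.777). The span of the gene also held transcripts of 1 block that were not counted. There were 25 in the library labelled Adar1-/- Mavs-/- and 44 in that labelled Adar1-/-, or 1.96 and 3.45 per 10 kb. Over all gene spans the rates were 1.18 and 1.22 per 10 kb, in the same order. With the uncounted transcripts included, Adarb1 came to 26.4 FPKM under the Adar1-/- Mavs-/- label and 29.4 FPKM under the Adar1-/- label, a log2 ratio of -0.17.

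Adarb2, the gene of ADAR3 (chr13:8202112-8767993), stayed below 1 FPKM wherever it was measured. It had 0.289 FPKM (0.145 to 0.450) in the embryo library labelled Adar1-/- Mavs-/-, 0.255 FPKM (0.160 to 0.349) in the Adar1-/- Mavs-/- liver library and 0.221 FPKM (0.157 to 0.285) in the liver library labelled Adar1-/-. The bounds of the liver pair overlapped, and the gene was too low to be counted in the comparison. Its transcript of most FPKM was ENSMUST00000135574 at 0.172 FPKM in the embryo library, an assembled transcript of 1405 bases at 0.184 FPKM in the liver library labelled Adar1-/- Mavs-/-, and an assembled transcript at 0.0746 FPKM in that labelled Adar1-/-. The long span of Adarb2 holds uncounted transcripts of up to 31.7 FPKM in liver under the Adar1-/- Mavs-/- label and 18.5 FPKM under the Adar1-/- label. The gene Gm10357, which lies in an Adarb2 intron, had 71.7 FPKM under the Adar1-/- Mavs-/- label and 73.3 FPKM under the Adar1-/- label, so a value taken by overlap would mostly measure other transcripts.

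Adat1, the tRNA deaminase of the position beside the anticodon (chr8:114490808-114516202), had 2.76 FPKM (2.36 to 3.15) in the Adar1-/- Mavs-/- liver library and 3.17 FPKM (2.93 to 3.41) in that labelled Adar1-/-. The bounds overlapped after scaling, and the log2 ratio was -0.16. With every overlapping assembled transcript included the direction turned, to 0.63, with 14.5 FPKM under the Adar1-/- Mavs-/- label and 8.84 FPKM under the Adar1-/- label. Of its 3 reference transcripts, 2 were above 0 in each library. ENSMUST00000034427, with the full frame of 499 amino acids, had 0.661 FPKM (0.532 to 0.789) in the library labelled Adar1-/- Mavs-/- and 1.03 FPKM (0.885 to 1.16) in the library labelled Adar1-/-. ENSMUST00000139820, with 454 amino acids, had 0.404 FPKM (0.298 to 0.510) under the Adar1-/- Mavs-/- label and 0.562 FPKM (0.443 to 0.682) under the Adar1-/- label. The highest transcript in the library labelled Adar1-/- Mavs-/- was an assembled one of 858 bases at 1.07 FPKM.

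Adat2 and Adat3 encode the catalytic and the structural subunit of the wobble deaminase, and both were lower in the embryo library labelled Adar1-/- Mavs-/- before scaling. Adat2 (chr10:13272700-13283182) had 2.68 FPKM (2.28 to 3.07) in the embryo library labelled Adar1-/- Mavs-/- and 4.08 FPKM (3.34 to 4.82) in that labelled Adar1-/-. Adat3 (chr10:80065625-80070399) had 3.42 FPKM (3.0 to 3.85) in the embryo library labelled Adar1-/- Mavs-/- and 5.56 FPKM (4.78 to 6.35) in that labelled Adar1-/-. Once the libraries were scaled, the bounds of each overlapped, with log2 ratios of -0.17 for Adat2 and -0.25 for Adat3.

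The embryo differences of this pair rested on assembled transcripts. The 1 reference transcript of Adat3, ENSMUST00000038411, had 3.42 FPKM (3.0 to 3.85) in the embryo library labelled Adar1-/- Mavs-/- and 3.56 FPKM (2.92 to 4.20) in that labelled Adar1-/-. An assembled transcript at 2.01 FPKM made up the rest in the library labelled Adar1-/-. For Adat2, ENSMUST00000019944 had 1.81 FPKM (1.49 to 2.14) under the Adar1-/- Mavs-/- label and 1.98 FPKM (1.54 to 2.43) under the Adar1-/- label. Assembled transcripts added 0.861 FPKM under the Adar1-/- Mavs-/- label and 2.10 FPKM under the Adar1-/- label. On reference transcripts alone the log2 ratios after scaling were 0.17 for Adat2 and 0.25 for Adat3, so the direction of neither is settled.

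In liver Adat2 was listed at 0 in the library labelled Adar1-/- Mavs-/-, while it had 3.22 FPKM (2.89 to 3.55) in the library labelled Adar1-/-, all in ENSMUST00000019944. The deposited status of the 0 was OK and that of the 3.22 FPKM was LOWDATA, so the status of neither value settles the difference. No fold is given, because a 0 in these values can be a failed estimate. Sfpq, a gene that cells use widely, was also listed at 0 in the library labelled Adar1-/- Mavs-/- and had 133.9 FPKM in the library labelled Adar1-/-. Of 9478 genes with at least 3 FPKM in the liver library labelled Adar1-/-, 270 or 2.85% had a value of 0 in its Adar1-/- Mavs-/- counterpart, and 353 of 8886 genes or 3.97% showed the reverse. The locus was not silent: 4 uncounted assembled transcripts overlapped Adat2 in the library labelled Adar1-/- Mavs-/-, the highest at 3.42 FPKM, and with them included Adat2 had 5.08 FPKM (3.14 to 7.01) there and 3.88 FPKM (3.47 to 4.29) in the library labelled Adar1-/-. Isoforms of Pex3, a neighbour needed for making peroxisomes, overlap Adat2, and Pex3 had 8.65 FPKM under the Adar1-/- Mavs-/- label and 6.71 FPKM under the Adar1-/- label.

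Adat3 was low and similar in liver. It had 1.63 FPKM (1.34 to 1.93) in the library labelled Adar1-/- Mavs-/- and 1.4 FPKM (1.14 to 1.66) in the library labelled Adar1-/-, a log2 ratio of 0.12 with overlapping bounds. In the library labelled Adar1-/- Mavs-/- the highest transcript was an assembled one at 0.951 FPKM, and ENSMUST00000038411 had 0.681 FPKM (0.468 to 0.894) there and 1.4 FPKM in the library labelled Adar1-/-. On that reference transcript alone the log2 ratio was -0.52. Adat3 shares its first exon region with Scamp4, a secretory membrane protein gene, so reads may be divided between the pair differently in each library. Scamp4 had 2.43 FPKM in liver under the Adar1-/- Mavs-/- label and 4.79 FPKM under the Adar1-/- label, and 3.78 FPKM in embryo under the Adar1-/- Mavs-/- label and 5.02 FPKM under the Adar1-/- label.

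**Figure D4:**
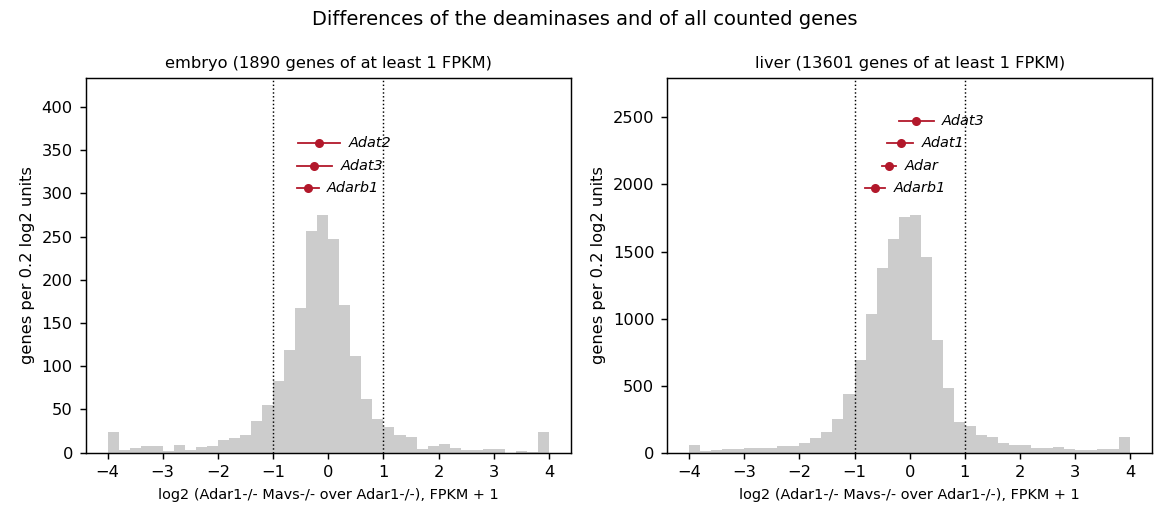
Log2 ratio of FPKM plus 1 (Adar1-/- Mavs-/- label over Adar1-/- label) for all counted genes (grey bars; values beyond 4 in size are drawn in the end bars) and for the deaminases (red points above the bars; lines run between the ratios at the bounds; height has no meaning), in embryo (left) and liver (right). Every point lies between the dotted lines at 2-fold; Adat2 in liver is left out because it is listed at 0 in 1 library.

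On the scale of FPKM plus 1, no member with values above 0 in both libraries reached 2-fold. The pseudocount and the scaling bear on this: with a pseudocount of 0.1 FPKM Adarb1 in liver passed it at -1.06, and scaled as TPM Adarb1, Adat2 and Adat3 in embryo passed it at -1.41, -1.12 and -1.22. In embryos 0 of the 3 counted members differed at least 2-fold, and 18.9% of all counted genes did, 7.25% on the higher and 11.7% on the lower side. In liver 5 members had at least 1 FPKM in either library. Of these, Adar, Adarb1, Adat1 and Adat3 stayed within 2-fold on that scale and Adat2 was listed at 0 in 1 library, while 17.3% of all counted genes differed at least 2-fold or were listed at 0 in 1 library with a value of at least 1 FPKM in the other.

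The levels of the members, compared per length as FPKM, came in the following order. In the liver library labelled Adar1-/- Mavs-/-, Adar was highest, followed by Adat1, Adat3, Adarb1 and Adarb2, and the bounds of neighbours in this order did not overlap. In the liver library labelled Adar1-/-, Adar again came first, and Adat2 and Adat1 followed with overlapping bounds, then Adarb1 and Adat3, also with overlapping bounds, and Adarb2 last. The values of Adar and Adarb1 in that liver library came from assembled transcripts alone, and their places rest on these. In both embryo libraries Adat3 and Adat2 had overlapping bounds and Adarb1 was below them. By rank among the named genes of its library, Adar was number 7839 of 33777 in the liver library labelled Adar1-/- Mavs-/- and number 7173 of 33779 in that labelled Adar1-/-.

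For the 3 members with values in all 4 libraries, the genes with the most similar pattern were sought among 2185 genes, as the Euclidean distance between centred values of log2(FPKM + 1). With 4 values per gene, close matches are easily found and this is a description only. Closest to Adarb1 were Efcab9 (distance 0.0585), Tspyl1 (0.07) and Sptbn1 (0.111), with a median of 1.31 over all genes. Closest to Adat3 were Fam184a (0.0169), 5730455P16Rik (0.0369) and Arf2 (0.0841), with a median of 1.48. Adat2 had no neighbour as close: Krt15 (0.313), B3gntl1 (0.532) and Phf12 (0.556) came first, with a median of 1.97, and B3gntl1 too was listed at 0 in the liver library labelled Adar1-/- Mavs-/-.

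Other deaminases of nucleosides, nucleotides and RNA were read beside the members in liver, where all 16 genes of the list had a value and 11 were counted. None was at least 2-fold higher and 2 were lower, beside 7.13% of all counted genes higher and 10.1% lower. On reference transcripts alone neither call remained, and 1 gene was higher, Cdadc1 at 1.88 (log2). The median log2 ratio of the 11 was -0.34, and that of all counted genes was -0.12. Ampd1, the AMP deaminase of skeletal muscle, had 0.0346 FPKM in the library labelled Adar1-/- Mavs-/- and 2.61 FPKM in the library labelled Adar1-/-, a log2 ratio of -1.80 that was -0.51 on reference transcripts alone. Apobec2, a muscle member of the APOBEC family, was listed at 0 in the library labelled Adar1-/- Mavs-/- and had 1.80 FPKM in the library labelled Adar1-/-. Muscle markers moved in the same direction: all 5 skeletal muscle markers with values were at least 2-fold lower, with a summed level of 9.36 FPKM in the library labelled Adar1-/- Mavs-/- and 130.1 FPKM in that labelled Adar1-/-, and so were the 3 counted heart muscle markers, with 1.04 FPKM under the Adar1-/- Mavs-/- label and 25.4 FPKM under the Adar1-/- label, summed over the list. The part of these markers in the values of Ampd1 and Apobec2 was not tested. The cytidine deaminases Apobec1 and Apobec3 were within 2-fold. Apobec1 had 2.88 FPKM under the Adar1-/- Mavs-/- label and 3.86 FPKM under the Adar1-/- label, and Apobec3 had 7.59 FPKM under the Adar1-/- Mavs-/- label and 9.28 FPKM under the Adar1-/- label.

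Known regulators and partners of ADAR proteins and enzymes that handle inosine formed the second list, with 21 of 24 genes counted in liver. There 18 were within 2-fold, 1 was higher and 2 were lower, beside 7.13% of all counted genes higher and 10.1% lower, and the median log2 ratio was 0.04. Transcripts of status OK alone gave 2 higher and 4 lower. Srsf9, a splicing factor reported to repress editing, had 1.49 FPKM in the library labelled Adar1-/- Mavs-/- and 20.7 FPKM in that labelled Adar1-/-, a log2 ratio of -3.13. The other 2 calls were genes listed at 0 in 1 library: Sfpq, given above, and Aimp2, which had 2.26 FPKM in the library labelled Adar1-/- Mavs-/- and was listed at 0 in that labelled Adar1-/-. Those within 2-fold include Wwp2, a ubiquitin ligase of ADAR2, Dhx9, a helicase that binds ADAR1, and Endov, the inosine-specific ribonuclease. Endov had 3.45 FPKM in liver under the Adar1-/- Mavs-/- label and 3.30 FPKM under the Adar1-/- label. As the only gene of this list covered in embryos, it had 10.2 FPKM there under the Adar1-/- Mavs-/- label and 12.4 FPKM under the Adar1-/- label, an embryo log2 ratio of 0.11 after scaling.

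The third list, other enzymes that modify transfer RNA, had 23 of 27 symbols counted in liver, with 22 within 2-fold, 0 higher and 1 lower, beside 7.13% of all counted genes higher and 10.1% lower, and a median log2 ratio of -0.11. These counts depend on the setting: transcripts of status OK alone gave 4 higher and 0 lower, and reference transcripts alone and TPM gave 3 lower each. Cdkal1, which adds a methylthio group beside the anticodon, had 8.01 FPKM in the library labelled Adar1-/- Mavs-/- and 27.5 FPKM in that labelled Adar1-/-, a log2 ratio of -1.68. Mettl1, which methylates guanosine in tRNA, was the only one covered in embryos, with 7.40 FPKM under the Adar1-/- Mavs-/- label and 5.94 FPKM under the Adar1-/- label and a log2 ratio of 0.63 after scaling.

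**Figure D5:**
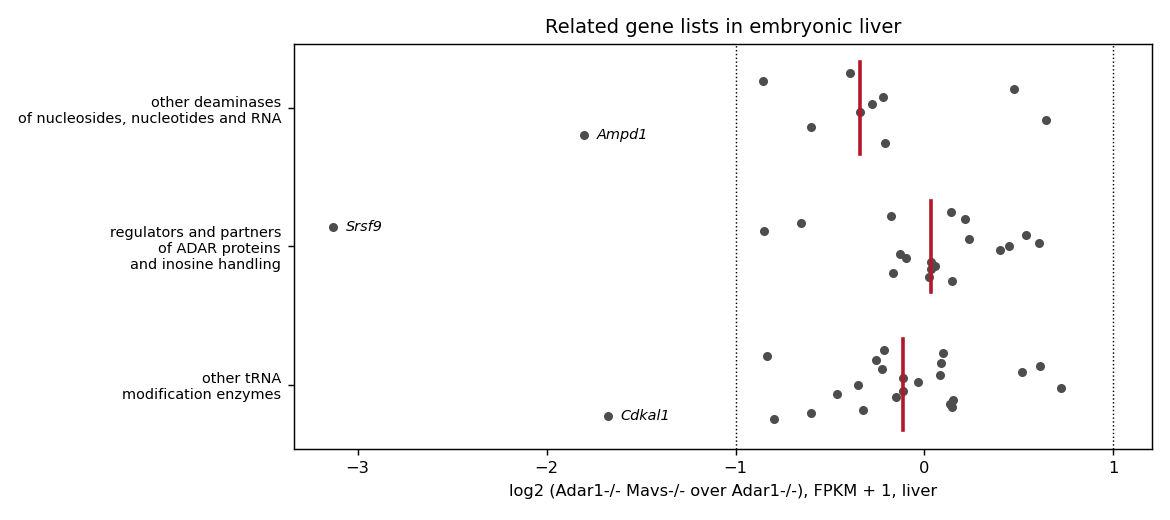
Log2 ratio of FPKM plus 1 in liver (Adar1-/- Mavs-/- label over Adar1-/- label) for the counted genes of 3 related lists (grey points; red lines are the medians over all counted genes of a list; genes listed at 0 in 1 library are not drawn as points). Ampd1, Srsf9 and Cdkal1 lie beyond the dotted lines at 2-fold, all on the lower side.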

How the data were processed

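Per the submitters' processing notes, the mm9 build, TopHat 1.4.0, Cufflinks 2.2.1 and edgeR 3.4.2 were used, without stated roles. The deposited values are FPKM per isoform with confidence bounds and status, per the file headers, and a signal of coverage, mean read depth, per the file headers. How strand, duplicate reads and multiply mapped reads were treated is stated by no source used here. Symbols came from GENCODE M21 by transcript identifier. Assembled transcripts were counted under the symbol of their Cufflinks gene that they overlapped best, and others not at all. Bounds were combined as the root of summed squares. Bounds lie 2 square roots of the fragments from the value, which gave fragments and totals. Genes reaching 5 FPKM in each library set the factor (905 in embryo, 6411 in liver), the pseudocount was 1 FPKM, a gene was counted from 1 FPKM in either library, and a log2 ratio of 1 in size was 2-fold. Work was done in Python 3.11.15 with numpy 2.4.6 and pandas 2.3.3 and tested on simulated data. The members and lists were chosen with earlier results of these data known. Named genes were all members, the Adar reference transcripts, each member's highest transcript, up to 3 genes each way at least 2-fold per list, the 3 closest in pattern, and overlapping neighbours. Other genes named were chosen after their values were seen.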

Additional observations from a re-analysis of the deposited data

Results flagged for a closer look

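Adat3 had log2 ratios of opposite sign in the tissues, -0.25 in embryo and 0.12 in liver, the library labelled Adar1-/- Mavs-/- over that labelled Adar1-/-. With 1 library per group the difference between the tissues was not tested. On the reference transcript alone both signs turned, to 0.25 in embryo and -0.52 in liver.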

How the results depend on the processing

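No paired analysis was possible because each group has 1 library. Reference transcripts alone turned the direction of Adar and Adarb1 in liver, to 2.81 and 0.199 FPKM under the Adar1-/- Mavs-/- label, with both listed at 0 under the Adar1-/- label. Under the other alternatives both stayed lower in the libraries labelled Adar1-/- Mavs-/-, in liver from -0.93 to -0.26 for Adar and from -1.06 to -0.17 for Adarb1, and in embryo from -1.41 to -0.28 for Adarb1. Transcripts of status OK alone left Adat3 listed at 0 in the liver library labelled Adar1-/-. Values set against a 0 have no ratio, and Adat2 in liver has none. Other scalings shifted the log2 values of all genes together: FPKM as deposited by -0.40 in embryo, TPM by -0.96 in embryo and -0.32 in liver, and the upper quartile by 0.15 and 0.14. The share of 2-fold genes that were higher was 38.3% in embryo, against 21.4% as deposited and 7.33% with TPM, and 41.3% in liver, against 26.2% with TPM.

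Log2 ratios that moved by more than their bounds were as follows. Reference transcripts alone gave 0.25 for Adat3 in embryo and -0.52 in liver. FPKM as deposited gave -0.59 for Adarb1 in embryo. TPM gave -1.41, -1.12 and -1.22 for Adarb1, Adat2 and Adat3 in embryo and -0.60 for Adar in liver. Status OK alone gave -0.93 for Adar and -0.44 for Adat1 in liver. A pseudocount of 0.1 FPKM gave -1.06 for Adarb1 in liver. Every overlapping transcript gave -1.02 for Adat2 and 0.28 for Adat3 in embryo, and -0.63 for Adar, -0.17 for Adarb1, -0.53 for Adarb2 and 0.63 for Adat1 in liver. The uncovered share of Adar in the liver library labelled Adar1-/- was 83.1% over transcripts of Adar alone and 50.9% over status OK alone, with the same longest stretch. Genes at least 2-fold, 137 higher and 221 lower in embryo and 970 and 1379 in liver, came to 349 lower as deposited, 82 higher and 1036 lower with TPM and 89 higher from 5 FPKM in embryo. In liver they came to 1821 higher with status OK alone, 2177 lower with a pseudocount of 0.1, and 554 higher and 791 lower from 5 FPKM. Of the list counts, 8 moved. The cause was not tested for any of these. Depth limits what can be said of genes below 1 FPKM.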
